A study of Rattus norvegicus with 12 samples.

Results

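The genes described here are 10 genes by which heart muscle cells are commonly recognised and by which their stress is commonly read. They were chosen by identifier, as 10 of the 20263 genes listed in the full tables. No rule on their measured values was used, but earlier results of these data were known when they were chosen. By role they are 2 natriuretic peptide genes (NPPA and NPPB), 6 genes of the contractile apparatus (MYH6, MYH7, TNNT2, TNNI3, TNNC1 and ACTC1) and 2 transcription factor genes (NKX2-5 and GATA4). RNA was measured by poly(A)-selected, paired-end sequencing in 12 libraries of H9C2 cells, 3 biological replicates in each of 4 groups, all of wild-type genotype and all collected after 48 h. The HG-Res-SIRT7-Inh group received 5 µM of a compound labelled as an inhibitor of SIRT7 together with 5 µM resveratrol, at 100 mM glucose. The HG-Res group received 5 µM resveratrol at 100 mM glucose, the HG group 100 mM glucose with no drug, and the Ctrl group 5.5 mM glucose with no drug. The treatment protocol names the inhibitor SirReal2, a compound better known as an inhibitor of SIRT2. Resveratrol, a polyphenol from plants such as grapes, is commonly applied to activate sirtuins, enzymes that use NAD to remove acyl groups from proteins. A vehicle, an osmotic control and an inhibitor-only group are not described in the labels.

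H9C2 is an established line from embryonic rat heart, and the labels call its cells cardiomyocytes. It divides in culture as myoblast-like cells, and in common use it carries few of the contractile proteins of adult heart unless it is made to differentiate. All 20263 identifiers in the files carry Ensembl's prefix for human genes, ENSG, although the labels give rat and the build rn6, and 0 of them matched the rat gene table. The names used here are those that the selection rule pairs with the human identifiers, and the organism of the transcripts was not settled by the files.

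In a heart muscle cell, force is made in the sarcomere, where myosin heavy chains pull on actin filaments. The troponin complex on the actin filament opens the sites for myosin when calcium binds to it. GATA4 and NKX2-5 are DNA-binding factors that act together early in heart development and switch on many of these contractile genes, as well as the gene for the atrial peptide. The natriuretic peptides are hormones that the heart releases under stretch, and a rise in NPPA and NPPB is a classic mark of pathological stress and of a return to a fetal program.

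Levels are in CPM, a gene's share of its library's reads, put on a common scale for all libraries. They are read within a gene, across libraries, and not across genes, since gene length was not scaled out. The low values of each library moved in steps of 0.0301 to 0.033 CPM, which corresponds to a depth of about 30.3 to 33.2 M reads in the 9 high-glucose libraries, and 3 such steps, taken as the limit that a value of 0 allows, come to 0.0904 to 0.099 CPM per library. Replicates were unequally close, with a median SD between replicates on the log2(CPM + 1) scale of 0.242 in HG-Res-SIRT7-Inh, 0.071 in HG-Res and 0.132 in HG over 12854 tested genes. A pair of libraries stood apart from the rest on the first principal component, which held 56.1% of the variance. They were HG-Res-SIRT7-Inh replicate 3 at 50.7 and HG replicate 2 at -29.7, with the other 7 libraries between -14.4 and 17.1. These 2 libraries hold the lowest value of 34.5% and 25.1% of the tested genes.

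The high-glucose libraries showed an uneven part of the heart muscle set, and a list of 10 genes gives only a coarse share to set beside that of all genes. Of the 10 genes, 5 were above 0 in all 9 libraries (NPPA, NPPB, TNNI3, ACTC1 and GATA4), against 68% of all listed genes. TNNC1 was above 0 in 8 libraries. The remaining 4, MYH6, MYH7, TNNT2 and NKX2-5, were above 0 in at most 1 of the 9 libraries, as were 21.2% of all listed genes. Only 4 of the 10 reached at least 0.5 CPM in at least 3 libraries, the level set for testing, which 63.4% of all genes reached. These were NPPA, NPPB, TNNI3 and GATA4. Of the markers that define the labelled cell type, the 2 cardiac myosin heavy chains, cardiac troponin T and NKX2-5 were thus at 0 or within 3 steps of it in every high-glucose library.

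The myosin heavy chain genes were listed at 0 almost throughout. MYH6 (ENSG00000197616), which encodes the fast alpha chain that predominates in adult rat ventricle and in human atrium, was at 0 CPM in all 3 HG-Res-SIRT7-Inh and all 3 HG-Res libraries. In HG it was at 0, 0 and 0.03 CPM, and the last value is a single step in replicate 3. MYH7 (ENSG00000092054), the slow beta chain that predominates in human ventricle, was at 0, 0 and 0.03 CPM in HG-Res-SIRT7-Inh and at 0 CPM in the 3 HG-Res and 3 HG libraries. Neither gene rose above the limit that a value of 0 allows in any high-glucose library, so no difference between the groups was detectable at this depth. The 2 genes are near-identical over long stretches, and how reads that fit both were counted is not given in the sources used here.

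The troponin genes were not alike. TNNT2 (ENSG00000118194), cardiac troponin T, which ties the troponin complex to tropomyosin, was at 0, 0 and 0.1 CPM in HG-Res-SIRT7-Inh and at 0 CPM in all 3 HG-Res and all 3 HG libraries. Its only value above 0 lay in replicate 3 of HG-Res-SIRT7-Inh, the library farthest from the others, and equals 3 steps. TNNI3 (ENSG00000129991), cardiac troponin I, the subunit that blocks contraction at low calcium, was at 1, 0.06 and 0.26 CPM in HG-Res-SIRT7-Inh, at 0.57, 0.92 and 0.41 CPM in HG-Res, and at 1.07, 0.36 and 0.26 CPM in HG. The 3 groups overlapped over most of their range, and HG-Res-SIRT7-Inh and HG each held values both high and low.

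For TNNI3 the replicates of a group differed by more than read counting alone. In HG-Res-SIRT7-Inh the values of replicates 1 and 2 equal about 32 and 2 reads, with approximate 95% Poisson intervals of 21.9 to 45.2 and 0.24 to 7.22 reads, which cover counting error only. In HG the values of replicates 1 and 3 equal about 34 and 8 reads, with intervals of 23.6 to 47.5 and 3.45 to 15.8 reads. Of the 3 replicate pairs within a group, the intervals were separate in 2 pairs in HG-Res-SIRT7-Inh, in 0 in HG-Res and in 2 in HG. The highest TNNI3 value in both HG-Res-SIRT7-Inh and HG was that of replicate 1. Separate intervals were not particular to TNNI3. NPPB had 3 separate pairs in HG-Res-SIRT7-Inh and 2 in HG-Res. NPPA and GATA4 each had 2 in HG-Res-SIRT7-Inh, and TNNC1 had 2 in HG-Res. How common separate pairs are among all tested genes was not counted, so these numbers have no share to stand beside.

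TNNC1 and ACTC1 were present at a trace. TNNC1 (ENSG00000114854), the calcium-binding troponin C of heart and slow skeletal muscle, was at 0.31, 0.71 and 0.26 CPM in HG-Res-SIRT7-Inh, at 0.32, 0.28 and 0 CPM in HG-Res, and at 0.13, 0.3 and 0.13 CPM in HG. Its highest value, in HG-Res-SIRT7-Inh replicate 2, equals about 22 reads, and it fell under the level for testing, with overlapping values in HG-Res-SIRT7-Inh and each of the other 2 groups. ACTC1 (ENSG00000159251), cardiac alpha-actin, was at 0.31, 0.19 and 0.26 CPM in HG-Res-SIRT7-Inh, at 0.35, 0.32 and 0.38 CPM in HG-Res, and at 0.19, 0.3 and 0.35 CPM in HG. ACTC1 stayed at about 6 to 12 reads per library. Its 3 HG-Res-SIRT7-Inh values lay below the 3 HG-Res values, as in 16% of the tested genes, to which ACTC1 does not belong. The nearest of these values, 0.31 CPM in HG-Res-SIRT7-Inh replicate 1 and 0.32 CPM in HG-Res replicate 2, both equal about 10 reads. The authors' deposited table gives ACTC1 a log2 fold change of -0.41 and a q-value of 0.659 in that comparison. Other actins are close to it in sequence, so reads shared with them make its level uncertain. Summed over the 6 contractile genes, the level was 0.91 to 1.62 CPM in HG-Res-SIRT7-Inh, 0.79 to 1.52 CPM in HG-Res and 0.77 to 1.39 CPM in HG, so the ranges of the 3 groups overlapped.

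**Figure D1:**
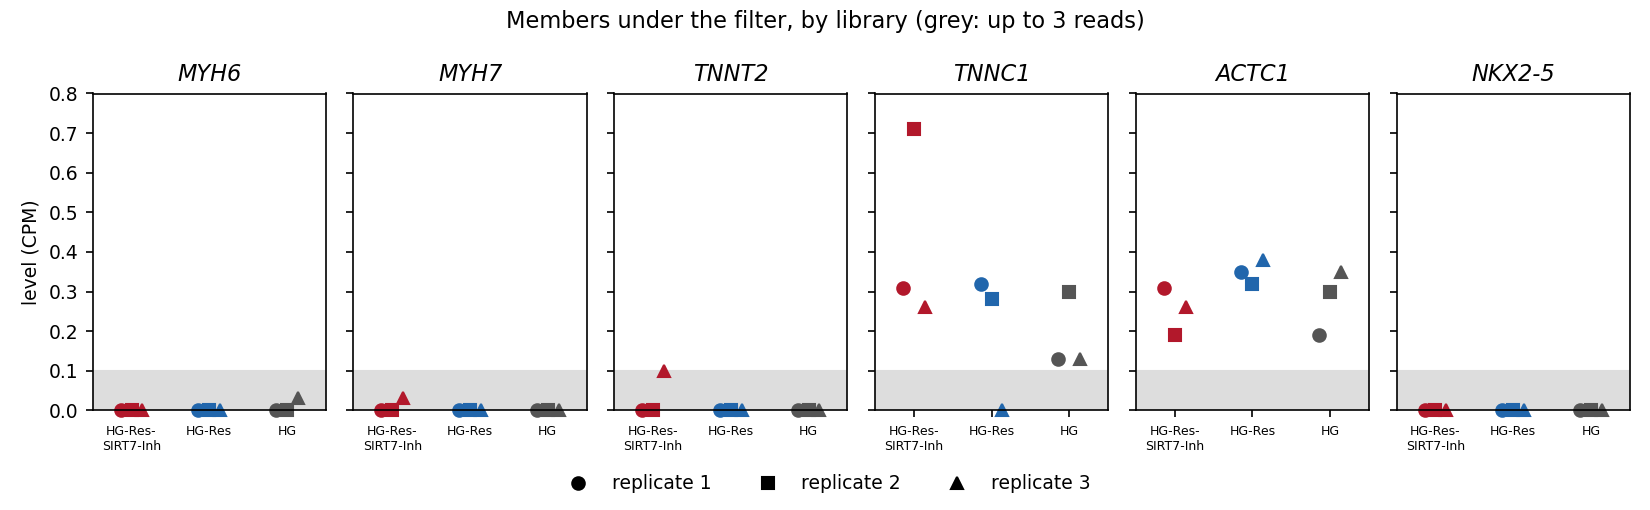
Level in CPM of the 6 genes under the level for testing, in each of the 9 high-glucose libraries, with HG-Res-SIRT7-Inh in red, HG-Res in blue, HG in grey and the marker shape giving the replicate. The grey band ends at 0.099 CPM, the highest limit that a value of 0 allows, and MYH6, MYH7 and NKX2-5 stay inside it while TNNT2 reaches 0.1 CPM in 1 library and ACTC1 lies above it in all 9.

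The 2 transcription factors stood at opposite ends of detection. NKX2-5 (ENSG00000183072), the homeobox factor of the early heart field, was at 0 CPM in all 9 high-glucose libraries, which allows up to 0.099 CPM in the shallowest of them. It was 1 of 3596 genes, 17.7% of those listed, at 0 throughout. GATA4 (ENSG00000136574), a zinc-finger factor of heart as well as of gut, liver and gonad, was at 10.1, 9.92 and 6.44 CPM in HG-Res-SIRT7-Inh, at 12, 11.5 and 10.5 CPM in HG-Res, and at 11, 11.9 and 9.74 CPM in HG. GATA4 was thus well detected in every high-glucose library. HG-Res-SIRT7-Inh replicate 3, at about 195 reads, was the lowest of the 9, and the other 8 libraries held about 303 to 394 reads.

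The natriuretic peptide genes were both detected in every high-glucose library. NPPA (ENSG00000175206), the atrial peptide, was at 1.78, 0.87 and 0.69 CPM in HG-Res-SIRT7-Inh, at 2.26, 2.28 and 1.97 CPM in HG-Res, and at 1.63, 2.05 and 1.51 CPM in HG. All 3 HG-Res-SIRT7-Inh values lay below all 3 HG-Res values, while HG overlapped both. NPPB (ENSG00000120937), the brain-type peptide, which is made in ventricle and whose product is the clinical marker of heart failure, was at 4.73, 2.76 and 1.45 CPM in HG-Res-SIRT7-Inh, at 9.61, 7.27 and 6.05 CPM in HG-Res, and at 4.02, 4.67 and 4.08 CPM in HG. The HG-Res values lay above all values of the other 2 groups, and the HG-Res-SIRT7-Inh values spread from above HG to well below it. NPPA overlaps an antisense transcript, and whether strand was used in counting is not given in the sources used here.

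**Figure D2:**
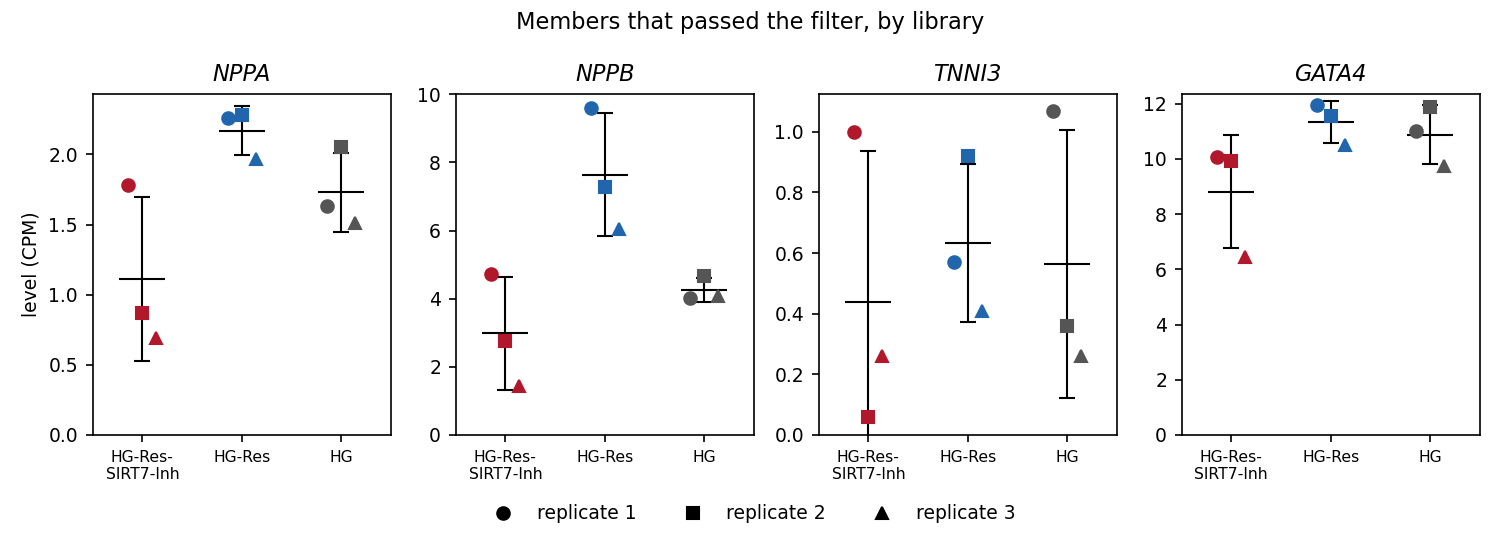
Level in CPM of the 4 genes that were tested, in each of the 9 high-glucose libraries; horizontal bars give the mean and whiskers the SD of 3 replicates, and the marker shape gives the replicate. NPPB stands at 6.05 to 9.61 CPM in HG-Res, above all values in HG-Res-SIRT7-Inh and HG, while the groups overlap throughout for TNNI3.

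The inhibitor was compared with resveratrol alone to ask what it changed in cells already given resveratrol. NPPB fell, and it was the only 1 of the 4 tested genes to pass, with 2.98 ± 1.65 CPM in HG-Res-SIRT7-Inh and 7.64 ± 1.81 CPM in HG-Res (SD, n = 3 each). The ratio of the means was 0.39, and the difference on the log2(CPM + 1) scale was -1.18 ± 0.27 (SE, limma with Benjamini-Hochberg adjustment over all tested genes, adjusted p = 0.0324). By the same rule 6.07% of all tested genes passed in this comparison and 4.19% fell. The call was narrow: the limma adjusted p was 0.133, 0.107 and 0.0702 without HG-Res replicate 1, 2 or 3, 0.0988 when HG-Res-SIRT7-Inh replicate 2 was left out, and 0.0585 without HG replicate 1. A fit of these 2 groups by themselves gave 0.0683, and 0.0533 came with no filter on low values, and over 17 alternatives it ranged from 0.00573 to 0.133. The difference kept its sign in all 17. With HG-Res-SIRT7-Inh replicate 3 left out, where NPPB was lowest, the difference was -0.88 ± 0.21 (SE, limma adjusted p = 0.0373). In bulk RNA, fewer cells that make a transcript and less of it per cell cannot be told apart.

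The authors' deposited table of the same comparison marked NPPB and NPPA as lower, and 3.69% of its 20263 genes carry that mark. That mark goes to genes with an unadjusted p below 0.05 and a fold change above 1.5, which held for every gene of the table. For NPPB the authors' deposited table gives a log2 fold change of -1.41 and a q-value of 0.0203, and for NPPA -1.01 and 0.188. In limma, NPPA was at 1.11 ± 0.58 CPM in HG-Res-SIRT7-Inh and 2.17 ± 0.17 CPM in HG-Res (SD, n = 3 each), a difference of -0.62 ± 0.17 (SE, adjusted p = 0.0673) that missed the threshold. It depended on 1 library: without HG-Res-SIRT7-Inh replicate 1, at 1.78 CPM the highest of its group, the difference was -0.83 ± 0.12 (SE, limma adjusted p = 0.00614). With replicate 3 of that group left out it was -0.47 ± 0.17 (SE, limma adjusted p = 0.126).

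GATA4 and TNNI3 did not pass in this comparison. GATA4 averaged 8.8 ± 2.05 CPM in HG-Res-SIRT7-Inh and 11.3 ± 0.75 CPM in HG-Res (SD, n = 3 each), with a difference of -0.35 (95% interval -0.707 to 0.002, limma adjusted p = 0.204) on the log2(CPM + 1) scale. With HG-Res-SIRT7-Inh replicate 3 left out this was -0.17 ± 0.1 (SE, limma adjusted p = 0.355). For TNNI3 the difference was -0.22 (95% interval -0.792 to 0.346, limma adjusted p = 0.572). Leaving out replicate 1, 2 or 3 of HG-Res-SIRT7-Inh gave -0.49, -0.03 and -0.15 for TNNI3, leaving out HG-Res replicate 2 gave -0.10, and a pseudocount of 0.1 gave -0.82, none of them past the threshold (limma adjusted p of 0.133 to 0.945 over these and the other alternatives). The replicate values of HG-Res-SIRT7-Inh and HG-Res did not overlap for NPPA, NPPB and GATA4, with HG-Res-SIRT7-Inh lower, as in 16% of all tested genes.

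The comparison of HG-Res with HG asked what resveratrol changed in high glucose. None of the 4 tested genes passed limma's threshold, 0 of 4, where 0.708% of all tested genes passed. Before adjustment NPPB alone was under 0.05, as were 10.7% of all tested genes. NPPB was at 7.64 ± 1.81 CPM in HG-Res and 4.26 ± 0.36 CPM in HG (SD, n = 3 each), a ratio of means of 1.8. The difference on the log2(CPM + 1) scale was 0.70 (95% interval 0.098 to 1.3, limma adjusted p = 0.376), and the replicate values did not overlap, with HG-Res higher, as in 15% of all tested genes. The authors' deposited table marked NPPB as higher, with a log2 fold change of 0.86 and a q-value of 0.0412, where 1.23% of its genes carry that mark. Without both of the libraries that stood apart the difference was 0.75 ± 0.2 (SE, limma adjusted p = 0.0303), an alternative chosen after the data were seen. Over 17 alternatives the adjusted p ranged from 0.0303 to 0.868 and the sign was kept in all of them.

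Resveratrol left smaller differences in the other 3 tested genes. NPPA was at 2.17 ± 0.17 CPM in HG-Res and 1.73 ± 0.28 CPM in HG (SD, n = 3 each), a difference of 0.22 (95% interval -0.169 to 0.608, limma adjusted p = 0.748). GATA4 was at 11.3 ± 0.75 CPM in HG-Res and 10.9 ± 1.08 CPM in HG, a difference of 0.06 (95% interval -0.297 to 0.411, limma adjusted p = 0.957). On the log2(CPM + 1) scale the interval for GATA4 is the narrowest of the 4 genes and the one for NPPB the widest. With a pseudocount of 0.1 the SE was largest for TNNI3, at 0.67 against 0.35 for NPPB. TNNI3 differed by 0.09 (95% interval -0.482 to 0.656, limma adjusted p = 0.961), and its sign turned without HG-Res replicate 2 or HG replicate 3.

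Resveratrol and inhibitor together were set against high glucose alone in a comparison that shares its libraries with both of the others. Of the 4 tested genes 0 passed limma's threshold, where 10.8% of all tested genes passed. Before adjustment NPPA alone was under 0.05, as were 27.9% of all tested genes. NPPA was at 1.11 ± 0.58 CPM in HG-Res-SIRT7-Inh and 1.73 ± 0.28 CPM in HG (SD, n = 3 each), a difference of -0.40 (95% interval -0.787 to -0.01, limma adjusted p = 0.169). NPPB was at 2.98 ± 1.65 CPM in HG-Res-SIRT7-Inh and 4.26 ± 0.36 CPM in HG, a difference of -0.48 (95% interval -1.08 to 0.116, limma adjusted p = 0.265). Both natriuretic peptide genes passed without HG-Res-SIRT7-Inh replicate 1, at -0.61 ± 0.12 for NPPA (SE, limma adjusted p = 0.0145) and -0.79 ± 0.21 for NPPB (SE, limma adjusted p = 0.0382). Without HG-Res-SIRT7-Inh replicate 3 the differences were -0.25 for NPPA and -0.18 for NPPB (limma adjusted p = 0.316 and 0.582). The differences for GATA4 and TNNI3 were -0.30 (95% interval -0.65 to 0.059, limma adjusted p = 0.25) and -0.14 (95% interval -0.706 to 0.433, limma adjusted p = 0.749). For GATA4 this was -0.11 ± 0.1 with HG-Res-SIRT7-Inh replicate 3 left out and -0.05 ± 0.09 without both libraries that stood apart (SE, limma adjusted p = 0.475 and 0.737). For TNNI3 it was -0.40, 0.06 and -0.07 with HG-Res-SIRT7-Inh replicate 1, 2 or 3 left out, 0.08, -0.22 and -0.27 with HG replicate 1, 2 or 3 left out, and -0.54 with a pseudocount of 0.1, again with none past the threshold. The authors' deposited table marked none of the 10 genes here, where 8.22% of its genes are marked.

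By mean level across the 3 high-glucose groups, NPPB and NPPA both ran from HG-Res at the top through HG to HG-Res-SIRT7-Inh. This order was not particular to them. GATA4 had means of 11.3, 10.9 and 8.8 CPM in that order, TNNI3 0.633, 0.563 and 0.44 CPM, and ACTC1 0.35, 0.28 and 0.253 CPM. TNNC1 was highest in HG-Res-SIRT7-Inh, at 0.427 CPM, against 0.2 CPM in HG-Res and 0.187 CPM in HG. For NPPB the 2 ends of this order differed, and neither neighbouring pair passed in limma. For NPPA no pair passed with all 9 libraries, although the replicate values of the 2 ends did not overlap.

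**Figure D3:**
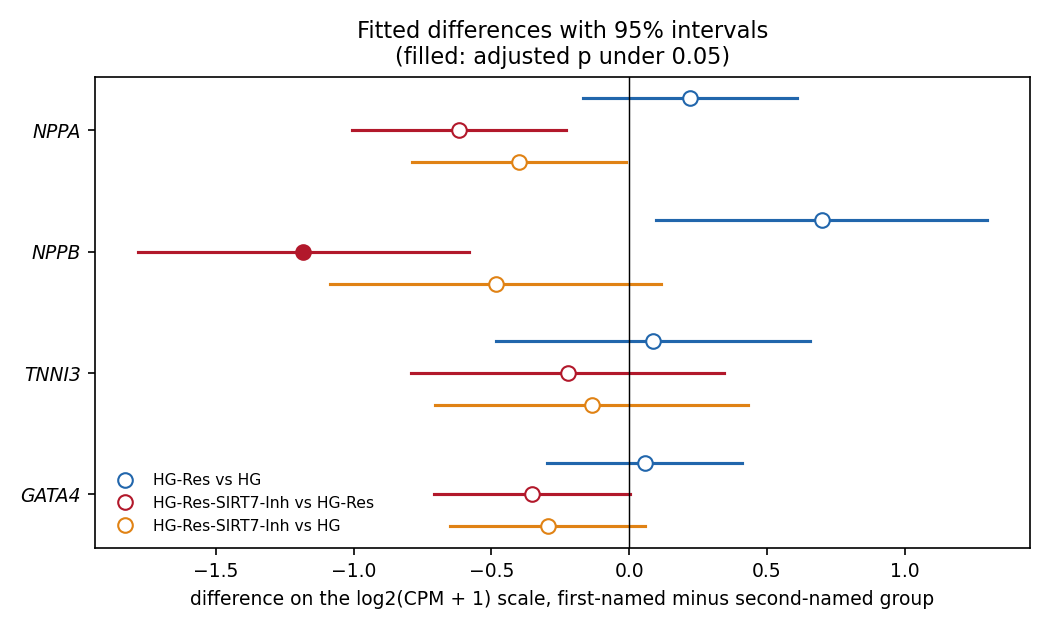
Fitted differences on the log2(CPM + 1) scale, first-named minus second-named group, with 95% intervals from limma, for 4 genes and 3 comparisons; filled points passed an adjusted p of 0.05. The only filled point is NPPB for HG-Res-SIRT7-Inh minus HG-Res, at -1.18.

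**Figure D4:**
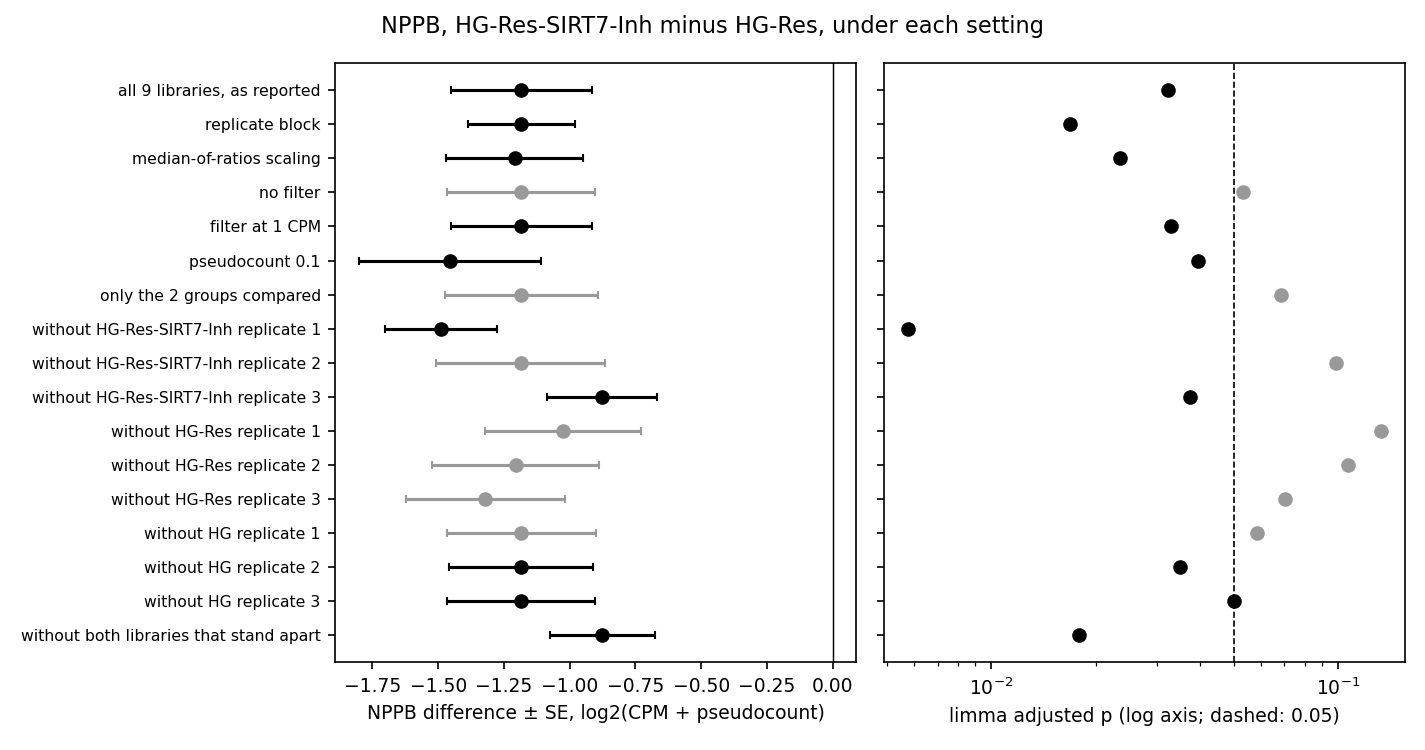
NPPB difference, HG-Res-SIRT7-Inh minus HG-Res, with its SE (left) and limma adjusted p on a log axis (right), under each setting fitted here; black points passed 0.05 and grey points did not. The difference stays below 0 under every setting shown, from -1.49 to -0.88, while the adjusted p runs from 0.00573 to 0.133.

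HG-Res-SIRT7-Inh replicate 3 held the lowest of the 9 values for NPPA, NPPB and GATA4, 3 of the 4 tested genes, and the highest for none of them. Over all tested genes that library held the lowest value in 34.5% and the highest in 33.5%. On the log2(CPM + 1) scale the SD of NPPB was 0.613 in HG-Res-SIRT7-Inh, 0.297 in HG-Res and 0.097 in HG, and that of GATA4 was 0.325, 0.089 and 0.132 in the same groups. What sets that library apart was not tested.

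For the genes near 0 the authors' deposited fold changes carry little. In the authors' deposited table of HG-Res-SIRT7-Inh against HG-Res, MYH7 and TNNT2 have the same log2 fold change of 1.79 and the same p-value of 0.658, although their single values above 0 were 0.03 and 0.1 CPM. MYH6, with a single step in HG replicate 3, has -1.69 in the authors' deposited table of HG-Res-SIRT7-Inh against HG and -1.66 in that of HG-Res against HG. The authors' deposited q-value was 1 for all of these. TNNC1 and ACTC1 have q-values between 0.537 and 1 over the authors' 3 deposited full tables.

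High glucose was set against normal glucose by the authors' deposited list of 354 marked genes, 1.75% of the 20263 genes in the full tables. None of the 10 genes is in that list, 0 of 10. Ctrl levels were available here only for genes in that list, so how NPPA, NPPB, GATA4 or the contractile genes stood in normal glucose is not described.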

How the data were processed

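The deposited files are 4 tables by the authors, 1 per pair of groups, with the authors' log2 fold change, p-value and q-value beside the value of each library. Trimmomatic and the build rn6 are named, per the submitters' processing notes. For the aligner, counter, annotation and test, these are not stated in the labels or files. The authors' value columns carry the heading TPM but behave as CPM. In each library 100% of low values lay within the rounding of 0.005 CPM of whole multiples of the library's step. The libraries of the full tables also have equal totals, which TPM would give as well. Within 0.1 of a step fewer passed, but the rounding of 0.005 CPM is wider than that tolerance, so this check could not decide. Read numbers were treated as approximate and served depth and counting limits only, and no count model was run. Libraries held in more than 1 table had 0 differing values, and no replicate pair had over 0.59% of tested genes with equal values.

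Levels of at least 0.5 CPM in 3 or more of the 9 high-glucose libraries were required for a test, which left 12854 genes. These entered limma 3.58.1 (R 4.3.3) as log2(CPM + 1), with group means in 1 fit, a trend in the prior variance, and adjustment by Benjamini-Hochberg with a threshold of 0.05, after checks on simulated data. For low genes such differences are smaller than the true change. The labels call replicates biological but do not say how they were made, so p-values measure only how these samples vary. All 10 members are named, and they and the lists were chosen with earlier results of these data known. The other lists (further sarcomere, heart factor, channel, metabolism and stress genes, and skeletal muscle, fibroblast, smooth muscle, endothelial, epithelial and leukocyte markers) and genes of like pattern were not analysed here, because neither the files nor the rat table pair the identifiers with symbols. Alternatives were scaling, filter, pseudocount, samples in the fit, a replicate block, the authors' q-values and each library left out.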

Additional observations from a re-analysis of the deposited data

How the results depend on the processing

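Counts of called genes over the whole table moved widely between settings, and the cause was not tested. Between HG-Res and HG (91 genes) the count was 45 under the replicate block, 596 with the 2 groups alone, 1091 by the authors' q-values and 2722 without both libraries that stood apart. With the inhibitor added to HG-Res (780 genes) the 2 groups alone gave 414 and the fit without both libraries 2412, and against HG (1385 genes) these gave 420 and 3991. Leaving out 1 library gave 19 to 801, 276 to 1778 and 549 to 2717 genes in these 3 comparisons. The authors' list of HG against Ctrl fell from 354 to 178 genes at a q-value under 0.05 and to 124 at 2-fold or more.

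Same-numbered replicates did not deviate together (correlations of -0.547 to 0.636, over 0.1 in 4 of 9 pairs, and 3 of 9 libraries correlated best with their own number), so the number was not taken as a pairing. With the replicate block the adjusted p of NPPB with the inhibitor against HG-Res was 0.0168, and no call of the 4 tested genes changed. The call for NPPB was lost under 7 of 17 alternatives. Signs turned for TNNI3 between HG-Res and HG without HG-Res replicate 2 or HG replicate 3, for TNNI3 in HG-Res-SIRT7-Inh against HG without HG-Res-SIRT7-Inh replicate 2 or HG replicate 1, and for GATA4 between HG-Res and HG without HG replicate 3. Leaving out 1 library at a time, these 3 differences ran from -0.0508 to 0.3073, from -0.4001 to 0.084 and from -0.0133 to 0.1177. None of them passed, and the cause was not tested. A lone library was never left in a group. The planned count test was not run, because the value columns hold CPM and not whole counts. At this depth, a value of 0 was taken to allow a level of up to about 0.099 CPM.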

Other observations

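Within a library, the CPM of NPPB divided by that of NPPA was 2.66, 3.17 and 2.1 in HG-Res-SIRT7-Inh, 4.25, 3.19 and 3.07 in HG-Res, and 2.47, 2.28 and 2.7 in HG. All 3 HG-Res ratios lay above the 3 HG ratios, and the HG-Res-SIRT7-Inh ratios overlapped both of those groups. The mean ratio was 3.5 ± 0.65 in HG-Res and 2.48 ± 0.21 in HG (SD, n = 3 each; two-sided exact permutation p = 0.1, the smallest that 3 against 3 allows, 0.3 adjusted over the 3 comparisons). With the inhibitor the exact permutation p was 0.2 against HG-Res and 0.7 against HG. The ratio was formed after the values were seen, and it is of reads, not per length.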
